A study of Danio rerio with 12 samples.

Results

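Solute carriers are membrane proteins that move small molecules across cell membranes without hydrolysing ATP. They are numbered by family, and a family often shares a kind of cargo: SLC1 and SLC7 proteins carry amino acids, SLC2 proteins hexoses, SLC4 proteins bicarbonate, SLC25 proteins metabolites of the mitochondrial inner membrane, and SLC35 proteins the nucleotide sugars used for glycosylation in the Golgi and endoplasmic reticulum. In an early fish embryo they import nutrients released from the yolk, set ion balance and pH, load synaptic vesicles in differentiating neurons and serve haem and pigment synthesis.

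The rows described here are those whose gene symbol begins with slc and a digit, whatever its case, with slc38a5b left out. There were 113 such rows among the 5134 rows of the table, from 37 families. SLC4A2, SLC7A3 and SLC17A6 stood on 2 rows each. Upper-case symbols, carried by 87 of the rows, do not tell apart the a and b paralogues of a duplicated zebrafish gene. The rows were sorted into 9 substrate classes by the usual cargo of the family, or of the member where a family carries several kinds, so that rows of SLC5, SLC6 and SLC17 fell into more than 1 class. The row slc4a1ap, which is named for an adapter protein of an anion exchanger and is no carrier, was kept apart. Roles given below are those known from mammals unless said otherwise.

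RNA from whole embryos of zebrafish (Danio rerio) carrying the rx3:GFP reporter was hybridised to 1-colour arrays at 18 hours after fertilisation, a stage the labels also give as 18 somites at 25 °C. The sema6A morphants had received an antisense morpholino, an oligonucleotide that blocks its target RNA, against the transmembrane semaphorin Sema6A at the single-cell stage. The plexinA2 morphants had received one against PlexinA2, a semaphorin receptor, at the same stage. The controls are labelled wild-type with no injection named, and all 3 groups carry the reporter. Each group had 4 arrays, called biological replicates in the labels. No label ties them to separate clutches, so p values measure the spread between these arrays only. Because the control is not described as injected with any morpholino, a response to injection and a response to loss of the target cannot be told apart in a morphant against control.

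Intensities are on the authors' linear scale after array normalization, and array medians lay between 608 and 708. An intensity depends on the probes of its row, so levels are compared between groups and never between genes. In whole embryos, fewer cells of a type and less RNA per cell cannot be told apart. Control replicate 2 and sema6A replicate 1 stood apart from the other arrays, with mean rank correlations of 0.835 and 0.876 with the remaining arrays, against 0.907 to 0.932 for the other arrays. Of the cell type lists, 11 of 19 erythroid, 7 of 19 muscle, 5 of 12 neuron, 2 of 13 neural crest and pigment, 2 of 9 pronephros and 2 of 8 ionocyte markers were measured, and no yolk syncytial or epidermal and hatching gland marker was. The targeted genes themselves were not analysed here. Values of single arrays are given in the order of replicates 1 to 4.

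**Figure D1:**
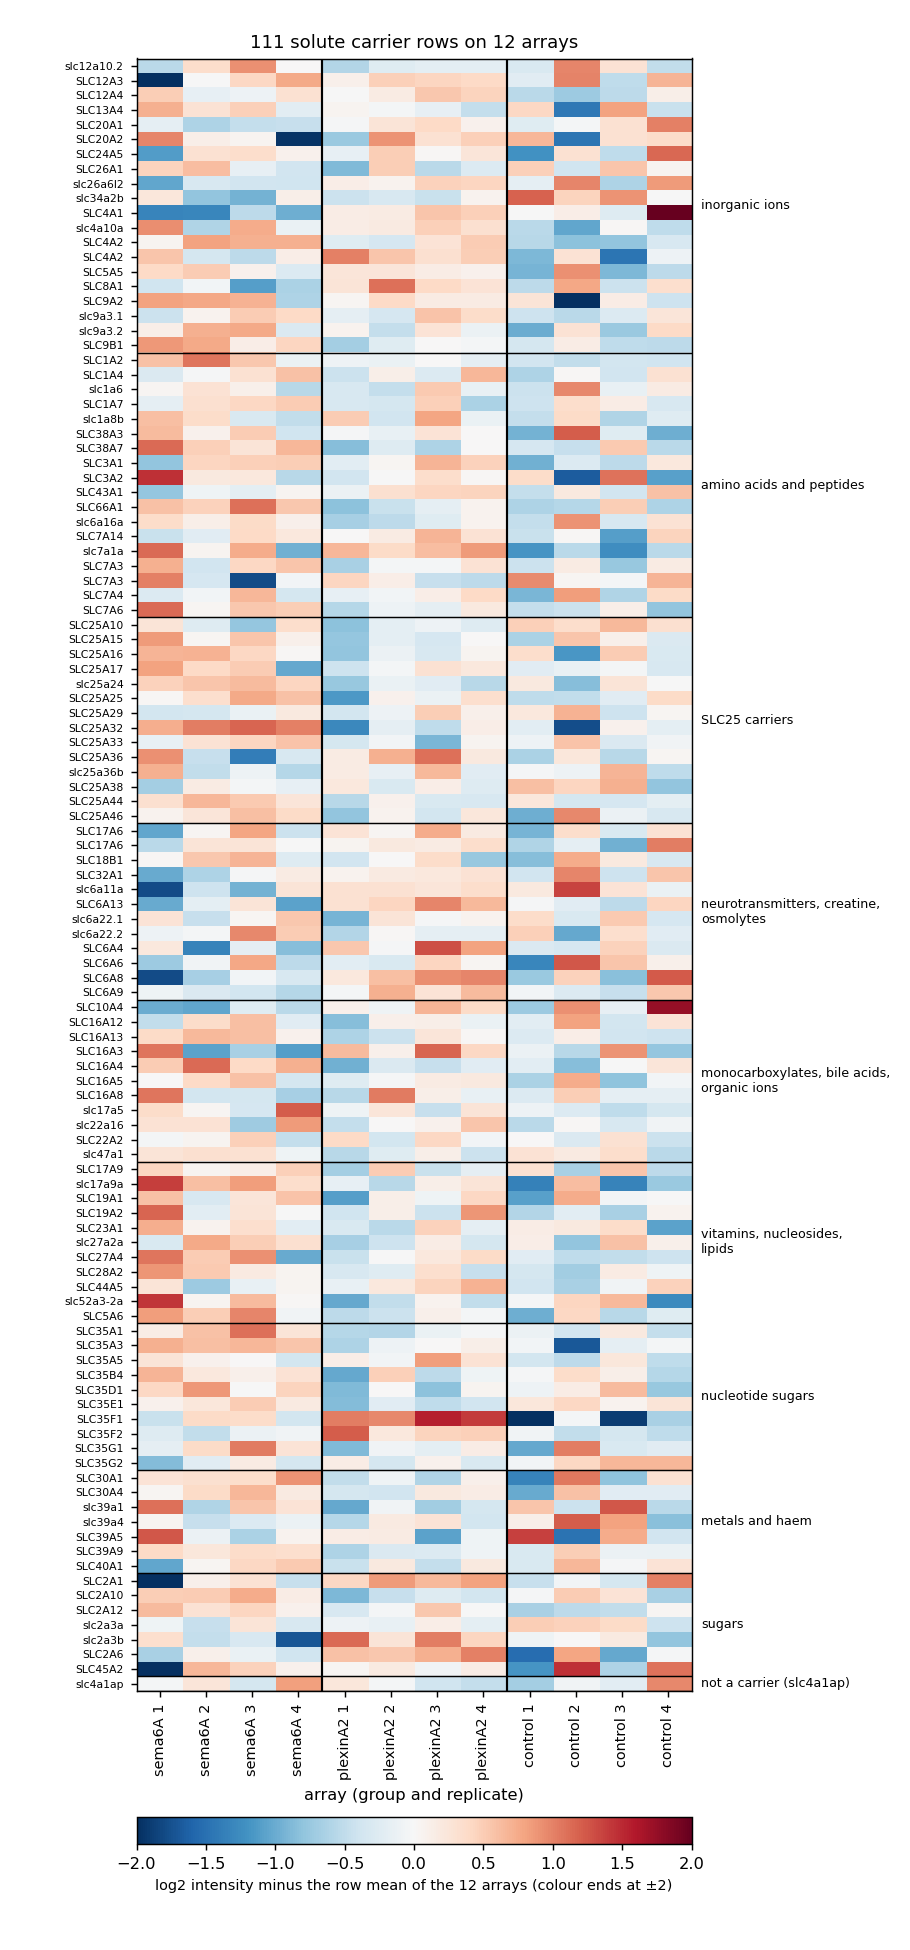
Each line is a solute carrier row (2 rows are not shown), sorted by substrate class, and each column an array, sorted into the sema6A morphant, plexinA2 morphant and control groups. Colour is the log2 intensity minus the mean of that row over the 12 arrays, from blue (lower) to red (higher). SLC35F1 is red on the 4 plexinA2 arrays, and SLC4A1 is dark red on control replicate 4.

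Changes are given on the log2 scale with the standard error (SE) of a moderated linear model (limma) fitted to all 12 arrays, and a row was called at an adjusted p under 0.05 over the 5134 rows. Of the 113 solute carrier rows, 3 rose and 0 fell in the sema6A morphants against control, while 3.12% of all rows were called in that comparison. In the plexinA2 morphants against control, 2 rose and 0 fell, while 2.86% of all rows were called. Both shares of solute carriers, 2.65% and 1.77%, lay near or below those of the whole table. Both comparisons used the same 4 control arrays. Control arrays enter a difference between the morphants only through the spread shared by all groups. Leaving out a control array therefore changes the p of that difference and not its size. Between the morphants 0 solute carrier rows were called, where 1.71% of all rows were, and 37 of the 113 had an unadjusted p under 0.05.

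In group means, small differences ran toward higher values in the sema6A morphants, but single arrays overlapped. Over the 113 rows, the median deviation from a row's mean over 12 arrays lay between 0.05 and 0.36 on the sema6A arrays. It lay between -0.31 and 0.15 on the plexinA2 arrays and between -0.34 and 0.14 on the control arrays. Over all rows it lay between -0.02 and 0.13 on the sema6A arrays and between -0.02 and 0.11 on the plexinA2 arrays. On the control arrays it lay between -0.11 and 0.01 over all rows. On sema6A replicate 2 the solute carrier value, 0.12, was close to that of all rows, 0.11. The mean log2 intensity was highest in the sema6A group for 60 of the 113 rows, in the plexinA2 group for 34 and in the control group for 19. Over all rows of the table the same shares were 38.4% for sema6A, 36.9% for plexinA2 and 24.7% for control, against 53.1%, 30.1% and 16.8% of the solute carriers. The median change of the solute carriers in the sema6A morphants against control was 0.31, with 77 of 113 (68.1%) higher. That of all rows was 0.06, with 54.9% higher. Leaving out 1 array gave solute carrier medians between 0.21 and 0.35. In the plexinA2 morphants against control the median change was 0.06, with 61 of 113 higher, beside 0.04 for all rows, of which 53.4% were higher. It was 0.20 without control replicate 2, 0.01 without plexinA2 replicate 4 and -0.08 after quantile normalization. Between the morphants it was 0.22, sema6A over plexinA2, beside 0.00 for all rows, and it was 0.045 without plexinA2 replicate 1. Of all rows, 50.2% were higher in sema6A than in plexinA2 embryos. The counts of higher and lower rows in the classes below stand beside these shares.

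At an unadjusted p under 0.05, 21 solute carrier rows were higher and 7 lower in the sema6A morphants against control, 24.8% of the 113, beside 20.6% of all rows. In the plexinA2 morphants against control 10 were higher and 3 lower, 11.5%, beside 17.2% of all rows. Between the morphants 21 were higher and 16 lower in sema6A, 32.7%, beside 26.8% of all rows. By the stricter count of groups that did not overlap, 8 rows had all sema6A arrays above all control arrays and 1 had them below, where 10.9% of all rows did not overlap. For the plexinA2 morphants 7 rows lay above and 2 below the controls, where 11.7% of all rows did not overlap. Between the morphants 16 lay above and 12 below, where 23.7% of all rows did not overlap. The median SD of a solute carrier row on the log2 scale was 0.43 among sema6A arrays, 0.34 among plexinA2 arrays and 0.53 among control arrays.

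**Figure D2:**
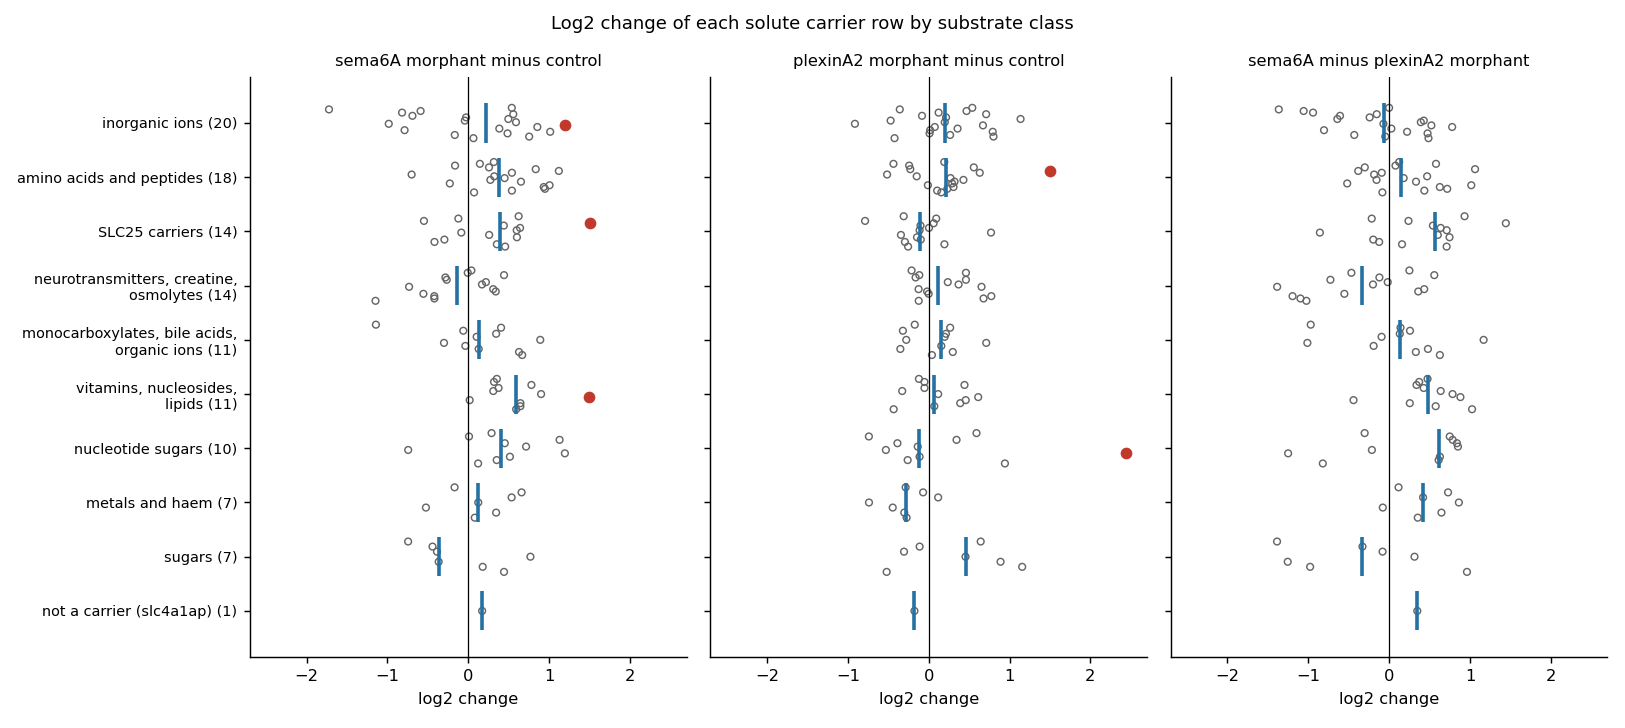
Each circle is a solute carrier row, placed by its log2 change (horizontal axis) in its substrate class, with the number of rows in brackets. The panels show sema6A morphant minus control, plexinA2 morphant minus control, and sema6A minus plexinA2 morphant. Filled red circles are called rows and blue bars are class medians. The 3 called rows on the left and the 2 in the middle lie on the positive side, and no row on the right is called.

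The carriers of inorganic ions, 20 rows, held the called bicarbonate exchanger SLC4A2, and their median changes were 0.22 in the sema6A and 0.21 in the plexinA2 morphants against control. Without control replicate 4 these medians were 0.38 in sema6A and 0.41 in plexinA2 embryos, and the plexinA2 median was 0.09 without plexinA2 replicate 2. SLC4A2 encodes an anion exchanger that swaps chloride for bicarbonate in many epithelia. Its row ENSDARG00000052330 stood at 1438, 2418, 2276 and 2265 on the sema6A arrays, at 1170.5, 1099, 1674 and 1958 on the plexinA2 arrays and at 941, 785, 799 and 1113 on the control arrays. Every sema6A array lay above every control array, while the plexinA2 arrays fell between and overlapped both. The row rose 2.29-fold in the sema6A morphants against control (log2 change 1.19 ± 0.29 SE, limma adjusted p = 0.0312). In the plexinA2 morphants the change was 0.67 ± 0.29 (adjusted p = 0.25). The sema6A call was lost without sema6A replicate 2, 3 or 4 or control replicate 1 or 3, with adjusted p values up to 0.104, and also when only these groups were fitted (adjusted p = 0.11).

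The other SLC4A2 row, ENSDARG00000028173, had a different order of groups. It stood at 1636, 874, 776 and 1227 on the sema6A arrays, at 2237, 1644, 1392 and 1573 on the plexinA2 arrays and at 601, 1362, 405 and 1043 on the control arrays. Here the plexinA2 arrays all lay above the controls and the sema6A arrays overlapped them. The change was 0.49 ± 0.37 in the sema6A morphants (adjusted p = 0.474) and 1.14 ± 0.37 in the plexinA2 morphants (adjusted p = 0.114). Without control replicate 2, the plexinA2 change was 1.41 with an adjusted p of 0.0286. The name table gives both rows the same upper-case symbol, so whether they are the paralogues of the fish gene cannot be read from it.

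SLC4A1 encodes band 3, the chloride and bicarbonate exchanger of the red cell membrane. It stood at 251, 255, 437 and 320.1 on the sema6A arrays, at 697, 702, 919 and 877 on the plexinA2 arrays and at 623, 692, 523 and 4723 on the control arrays. All sema6A arrays lay below all arrays of both other groups, and control replicate 4 was far above every other array. The change in the sema6A morphants was -1.72 ± 0.50 against control (adjusted p = 0.0629) and -1.37 ± 0.50 against the plexinA2 morphants (adjusted p = 0.109), so neither passed the test. The change against control was -0.98 without control replicate 4. Without control replicate 3 it passed the test, at -2.04 with an adjusted p of 0.0355, and the difference from the plexinA2 morphants passed it without control replicate 4 (adjusted p = 0.0129).

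Summed erythroid markers, like SLC4A1, were lower on the sema6A arrays than on all arrays of the other groups. Their 11 measured rows, which do not include SLC4A1, summed to between 6855 and 18334 on the sema6A arrays, between 22972 and 31942 on the plexinA2 arrays and between 23527 and 51454 on the control arrays. All 11 were lower in the sema6A morphants against control and 3 fell by the test, with a median change of -1.45. In the plexinA2 morphants against control 4 of the 11 were lower, with a median change of 0.10. SLC4A1 changed by -0.36 there with all arrays, and by 0.38 without control replicate 4. The highest sum belonged to control replicate 4 and the lowest to sema6A replicate 1. Among the plexinA2 arrays, replicate 3 had the highest SLC4A1 intensity, 919, and the lowest sum, 22972. The part of erythroid RNA in the SLC4A1 difference was not tested.

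**Figure D3:**
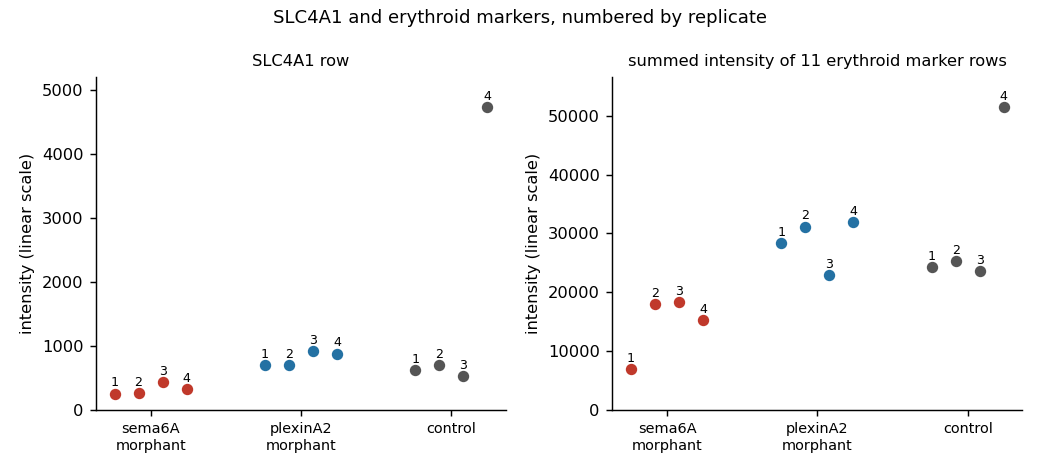
The left panel shows the SLC4A1 intensity and the right panel the summed intensity of the 11 erythroid marker rows, both on linear axes from 0, with each point an array numbered by replicate and sorted into sema6A morphant, plexinA2 morphant and control. Sema6A arrays lie lowest in both panels, and control replicate 4 lies highest in both, at 4723 for SLC4A1 and 51454 for the sum.

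Among the remaining ion carriers the changes against control stayed uncalled in both morphants. Over the class, 4 rows were higher and 4 lower in the sema6A morphants at an unadjusted p under 0.05, 40% of the class beside 20.6% of all rows. Among the same rows 4 were higher and 1 lower in the plexinA2 morphants, 25% beside 17.2% of all rows. The 4 lower in sema6A embryos were SLC4A1, slc34a2b (-0.98), slc26a6l2 (-0.79) and SLC20A1 (-0.69). The 1 lower in plexinA2 embryos was slc34a2b (-0.91). The 4 rows of SLC9, the sodium and proton exchangers, had changes between 0.38 and 1.01 in the sema6A morphants and between 0.07 and 0.79 in the plexinA2 morphants, and none was called.

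The amino acid and peptide class held 18 rows and no peptide carrier. Of these rows, 15 had a higher mean than control in the sema6A morphants (beside 54.9% of all rows). In the plexinA2 morphants 12 did (beside 53.4%). Their median changes were 0.38 in the sema6A and 0.21 in the plexinA2 morphants. Over fits that left out 1 array each, the sema6A median lay between 0.21, without control replicate 1, and 0.47, without control replicate 2, and the plexinA2 median fell to 0.04 without control replicate 1. The called row was slc7a1a, a uniporter of arginine, lysine and ornithine at the cell surface. It stood at 1326, 624, 1008 and 311 on the sema6A arrays, at 949, 784, 928 and 1084 on the plexinA2 arrays and at 266, 413, 255 and 415 on the control arrays. Every plexinA2 array lay above every control array. The sema6A arrays spread more widely, and replicate 4 lay within the controls.

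The slc7a1a row rose 2.83-fold in the plexinA2 morphants against control (log2 change 1.50 ± 0.38, adjusted p = 0.0335). In the sema6A morphants the change was 1.12 ± 0.38 (adjusted p = 0.102), and it passed the test without sema6A replicate 4, at 1.52 with an adjusted p of 0.0149. The morphants differed by -0.38 ± 0.38, sema6A minus plexinA2 (adjusted p = 0.513). The plexinA2 call was lost without any 1 of the 4 plexinA2 arrays or without control replicate 1 or 3, with adjusted p values up to 0.122. It was also lost with arrays centred on their medians.

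SLC1A2 encodes the main glutamate uptake carrier of astrocytes. It was a dim row, at 112, 156, 108 and 68.4 on the sema6A arrays, at 69.0, 67.4, 74.5 and 65.3 on the plexinA2 arrays and at 56.8, 52.8, 57.3 and 56.4 on the control arrays. Both morphant groups lay wholly above the controls, which spanned a narrow range. The changes were 0.93 ± 0.28 in the sema6A morphants (adjusted p = 0.0685) and 0.31 ± 0.28 in the plexinA2 morphants (adjusted p = 0.607), and without sema6A replicate 4 the sema6A change was 1.15 with an adjusted p of 0.0234.

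SLC38A7, a lysosomal exporter of glutamine and asparagine, had its smallest p between the morphants. It stood at 1184, 754, 646 and 863 on the sema6A arrays, at 299, 453, 353 and 546 on the plexinA2 arrays and at 429, 394, 780.2 and 374 on the control arrays. The sema6A arrays all lay above the plexinA2 arrays, and control replicate 3 reached into the sema6A range. The difference, sema6A minus plexinA2, was 1.06 ± 0.32 (adjusted p = 0.0678), and it passed the test without control replicate 2 (adjusted p = 0.0378). Against control the changes were 0.83 ± 0.32 in the sema6A morphants (adjusted p = 0.141) and -0.23 ± 0.32 in the plexinA2 morphants (adjusted p = 0.753). The 2 rows of SLC7A3, which encodes another cationic amino acid carrier, were not among the called rows.

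The 14 SLC25 rows, most of them carriers of the mitochondrial inner membrane, had median changes of 0.40 in the sema6A morphants and -0.11 in the plexinA2 morphants against control. Between the morphants the median was 0.57, sema6A over plexinA2, with 10 of 14 rows higher (beside 50.2% of all rows), and it was 0.34 without plexinA2 replicate 1. Against control, the sema6A median was 0.24 without control replicate 1, and the plexinA2 median was 0.03 without plexinA2 replicate 1. Other classes also had higher medians in sema6A than in plexinA2 embryos. These were 0.62 for nucleotide sugars (6 of 10 rows higher), 0.47 for vitamins, nucleosides and lipids (10 of 11) and 0.42 for metals (6 of 7). The median was 0.15 for amino acids, 0.14 for monocarboxylates, -0.06 for inorganic ions and -0.33 for both sugars and neurotransmitters. SLC25A32 carries folate and flavin cofactors into mitochondria. It stood at 2057, 2544, 2796 and 2506 on the sema6A arrays, at 512, 1098, 874 and 1366 on the plexinA2 arrays and at 1080.4, 364, 1321 and 1090.4 on the control arrays. The sema6A arrays lay above all arrays of the other groups, which covered nearly the same range.

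SLC25A32 rose 2.84-fold in the sema6A morphants against control (log2 change 1.50 ± 0.39, adjusted p = 0.0388), and its change in the plexinA2 morphants was 0.06 ± 0.39 (adjusted p = 0.949). The direct difference between the morphants was 1.44 ± 0.39, sema6A over plexinA2 (adjusted p = 0.0542). It passed the test without control replicate 2 or 4 and under quantile normalization (adjusted p = 0.0439). The call against control held only without plexinA2 replicate 1 or control replicate 3 or 4, and the other 9 fits that left out 1 array gave adjusted p values up to 0.106. It was also lost when only these groups were fitted (adjusted p = 0.11). Without control replicate 2, the lowest control, the change was 1.09.

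In the same class, slc25a24, a calcium-regulated carrier of ATP-magnesium and phosphate, averaged 596 ± 37.1 in sema6A, 317 ± 62.5 in plexinA2 and 404 ± 122 in control embryos (SD, n = 4 each). SLC25A44, a carrier of branched-chain amino acids, averaged 1524 ± 204 in sema6A, 936 ± 179 in plexinA2 and 1014 ± 205 in control embryos. On both rows the sema6A arrays lay above all arrays of both other groups. For SLC25A44 the margin over control was very narrow, with 1317 on sema6A replicate 4 against 1314 on control replicate 1. The differences between the morphants were 0.93 ± 0.29 for slc25a24 (adjusted p = 0.0799) and 0.71 ± 0.27 for SLC25A44 (adjusted p = 0.116). Without control replicate 2, slc25a24 differed with an adjusted p of 0.0277.

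The 10 SLC35 rows, the nucleotide sugar class, held the largest change of any solute carrier in these comparisons. SLC35F1 is a member with no settled substrate that is known chiefly from brain. It stood at 428, 759.7, 754 and 454 on the sema6A arrays, at 1186, 1142, 1711 and 1537 on the plexinA2 arrays and at 121, 569.9, 157 and 374 on the control arrays. All plexinA2 arrays lay above all arrays of both other groups, while the sema6A arrays overlapped the controls only through control replicate 2. SLC35F1 rose 5.44-fold in the plexinA2 morphants against control (log2 change 2.44 ± 0.41, adjusted p = 0.00148). This call held in each of the 12 fits without 1 array, with adjusted p values up to 0.00988, and under every other setting tried, up to 0.00375. In the sema6A morphants the change was 1.19 ± 0.41 (adjusted p = 0.11), and the morphants differed by -1.25 ± 0.41, sema6A minus plexinA2 (adjusted p = 0.0869). Without control replicate 2, SLC35F1 was also called in the sema6A morphants (1.59, adjusted p = 0.0216) and between the morphants (adjusted p = 0.0327).

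SLC35F2, a related protein of the same subfamily, was dim, at 57.4, 48.9, 63.3 and 65.8 on the sema6A arrays, at 159, 79.9, 93.8 and 95.6 on the plexinA2 arrays and at 65.5, 48.9, 54.0 and 48.3 on the control arrays. Its plexinA2 arrays also lay above all others, and the sema6A and control arrays shared a range. The plexinA2 change was 0.94 ± 0.28 against control (adjusted p = 0.0874), and the morphants differed by -0.82 ± 0.28, sema6A minus plexinA2 (adjusted p = 0.0952).

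SLC35E1, another member without a settled substrate, ran the other way in the plexinA2 morphants. It stood at 753, 829, 1001 and 804 on the sema6A arrays, at 388, 603, 496 and 543 on the plexinA2 arrays and at 830.2, 939.8, 741 and 849 on the control arrays. The plexinA2 arrays lay below all others, with changes of -0.74 ± 0.26 against control (adjusted p = 0.153) and 0.75 ± 0.26 for sema6A over plexinA2 (adjusted p = 0.0995). SLC35A3, which moves UDP-N-acetylglucosamine into the Golgi, was highest in the sema6A morphants. It stood at 1917, 1777, 1855 and 1724 on the sema6A arrays, at 763, 1094, 1168 and 1265 on the plexinA2 arrays and at 1128, 361, 1027 and 1137 on the control arrays. The sema6A arrays lay above all others, with a change of 1.13 ± 0.34 against control (adjusted p = 0.0731). Without control replicate 2, the low control, that change was 0.73. The class as a whole had 9 of 10 rows higher than control in the sema6A morphants (beside 54.9% of all rows), with a median of 0.40. In the plexinA2 morphants 4 of 10 were higher (beside 53.4% of all rows), with a median of -0.12. The sema6A median was 0.21 without control replicate 4, and the plexinA2 median was 0.04 without plexinA2 replicate 1.

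The vitamin, nucleoside and lipid carriers, 11 rows, all had a higher mean in the sema6A morphants than in control (beside 54.9% of all rows), with a median change of 0.59. In the fits without 1 array and under other scalings 10 or 11 of the rows were higher, and leaving out 1 array gave medians between 0.36, without sema6A replicate 1, and 0.75, without sema6A replicate 4. In the plexinA2 morphants 6 of 11 were higher, with a median of 0.07 that was -0.13 under quantile normalization and 0.23 without control replicate 2. The called row, slc17a9a, carries a nucleotide, which is none of the cargoes that name the class. It is one of the fish genes for the vesicular nucleotide transporter that loads ATP into secretory vesicles. It stood at 647, 375, 443 and 316 on the sema6A arrays, at 220.4, 168, 269 and 297 on the plexinA2 arrays and at 97.1, 383, 98.5 and 148 on the control arrays. Control replicate 2 lay within the sema6A range and the other controls lay below it.

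The slc17a9a row rose 2.81-fold in the sema6A morphants against control (log2 change 1.49 ± 0.39, adjusted p = 0.0437). The plexinA2 change was 0.61 ± 0.39 (adjusted p = 0.446), and it was 1.05 without control replicate 2. The sema6A call depended on the arrays used. It held without control replicate 2, where the change was 1.94 with an adjusted p of 0.00107, and without sema6A replicate 4, and was lost in the other 10 fits that left out 1 array, with adjusted p values up to 0.115. It was also lost with only these groups fitted, with quantile normalization, with centring and with an offset of 50, with adjusted p values up to 0.148.

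SLC5A6, a sodium-coupled carrier of biotin and pantothenate, averaged 1707 ± 501 in sema6A, 972 ± 206 in plexinA2 and 940.0 ± 399.5 in control embryos (SD, n = 4 each). Its sema6A change was 0.90 ± 0.33 against control (adjusted p = 0.133), and without control replicate 2 it was 1.15 with an adjusted p of 0.0485. The riboflavin carrier row slc52a3-2a averaged 1312 ± 655 in sema6A, 615 ± 189 in plexinA2 and 898 ± 419.9 in control embryos. Its largest difference, 1.03 ± 0.41 for sema6A over plexinA2, had an adjusted p of 0.131.

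**Figure D4:**
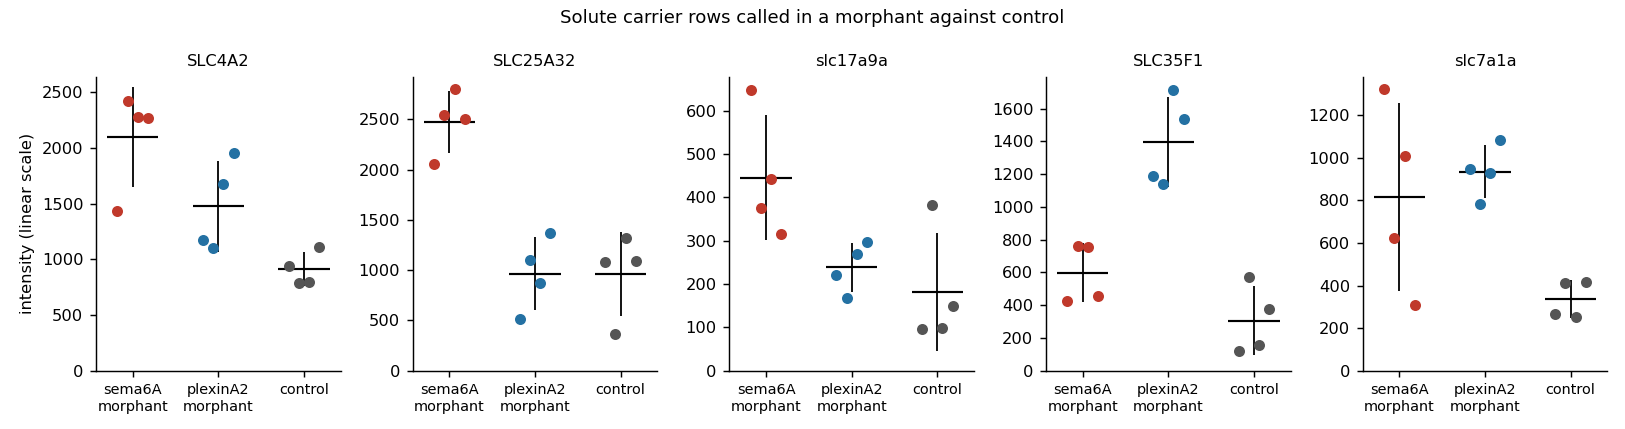
Panels show the 5 called rows (SLC4A2 is ENSDARG00000052330), with intensity on a linear axis from 0, each point an array, horizontal bars the group means and vertical lines the SD over 4 arrays. SLC4A2, SLC25A32 and slc17a9a were called in the sema6A morphants, and SLC35F1 and slc7a1a in the plexinA2 morphants. Each group has 4 points, and the sema6A points of SLC25A32 lie between 2057 and 2796, above all others.

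The sugar carriers, 7 rows, had no called member. Their median change was -0.37 in the sema6A morphants against control, which turned to 0.22 without sema6A replicate 1, and 0.45 in the plexinA2 morphants, which was 0.29 without plexinA2 replicate 3. SLC2A6, a hexose transporter of lysosomes, stood at 98.7, 165, 141 and 117 on the sema6A arrays, at 232, 223, 253 and 310.2 on the plexinA2 arrays and at 53.4, 267, 75.9 and 152 on the control arrays. Only control replicate 2 reached the plexinA2 range. The plexinA2 change was 1.16 ± 0.40 (adjusted p = 0.141), and it passed the test without control replicate 2, at 1.57 with an adjusted p of 0.0102.

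The glucose transporter row slc2a3b, related to the glucose carrier of neurons, stood at 340.3, 193, 216 and 82.0 on the sema6A arrays, at 592, 321, 547 and 364 on the plexinA2 arrays and at 252, 269, 306 and 155 on the control arrays. The plexinA2 arrays lay above all controls and overlapped the sema6A arrays through sema6A replicate 1. The morphants differed by -1.25 ± 0.38, sema6A minus plexinA2 (adjusted p = 0.0731). It passed the test without sema6A replicate 1 (-1.55, adjusted p = 0.0404) and without control replicate 2 (adjusted p = 0.0438). SLC2A10, a glucose transporter family member of internal membranes, had the opposite order. It averaged 4356 ± 718 in sema6A, 2242 ± 403 in plexinA2 and 3309 ± 1039 in control embryos, with a difference of 0.96 ± 0.30 for sema6A over plexinA2 (adjusted p = 0.0763), which passed the test without control replicate 2 (adjusted p = 0.0365) or control replicate 4.

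The carriers of neurotransmitters, creatine and osmolytes, 14 rows, had no called member. They were lower in the sema6A than in the plexinA2 morphants for 10 rows, while 50.2% of all rows were higher there. The median difference was -0.33, and it was -0.10 without sema6A replicate 1 and -0.55 without sema6A replicate 3. Of these rows, 5 had an unadjusted p under 0.05, all lower in sema6A, which is 35.7% of the class beside 26.8% of all rows. SLC6A4, the serotonin transporter, stood at 294, 101, 224 and 142 on the sema6A arrays, at 370.3, 252, 626 and 447 on the plexinA2 arrays and at 208, 201, 349.9 and 208 on the control arrays. Sema6A replicate 1 overlapped the lowest plexinA2 array. The difference was -1.20 ± 0.36, sema6A minus plexinA2 (adjusted p = 0.0713), with an adjusted p of 0.0415 without control replicate 2 and 0.0444 without sema6A replicate 1.

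SLC6A13, a carrier of GABA and taurine, stood at 495, 876, 1198 and 475 on the sema6A arrays, at 1239, 1349.9, 1972 and 1569 on the plexinA2 arrays and at 987, 856, 695 and 1347 on the control arrays. The morphants did not overlap, by a narrow margin, and the difference was -1.10 ± 0.33 (adjusted p = 0.0725, and 0.0415 without control replicate 2). SLC6A8, the creatine transporter, averaged 1592 ± 679.9 in sema6A, 3885 ± 894 in plexinA2 and 2889.7 ± 1981 in control embryos (SD, n = 4 each). Its difference was -1.39 ± 0.44, sema6A minus plexinA2 (adjusted p = 0.0804), and it passed the test without control replicate 2 or 4, with an adjusted p of 0.0479 at the lowest.

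Summed markers of neurons and muscle, tissues that use creatine and transmitter carriers, also lay lower on the sema6A than on the plexinA2 arrays. The 5 measured neuron markers summed to between 5627 and 12610 on the sema6A arrays, between 12684 and 15167 on the plexinA2 arrays and between 7982 and 18295 on the control arrays, and 4 of 5 were lower in sema6A than in plexinA2 embryos. The 7 measured muscle markers summed to between 15501 and 45239 on the sema6A arrays, between 55022 and 74536 on the plexinA2 arrays and between 39489 and 87443 on the control arrays. All 7 muscle rows were lower in sema6A than in plexinA2 embryos, and none of either list was called between the morphants. Other lists are given for comparison. All 11 erythroid rows were lower in sema6A than in plexinA2 embryos, and 2 were called. Of 2 measured rows each, 2 pronephros, 1 neural crest and pigment and 0 ionocyte markers were lower. The part of neurons and muscle in the carrier differences was not tested.

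**Figure D5:**
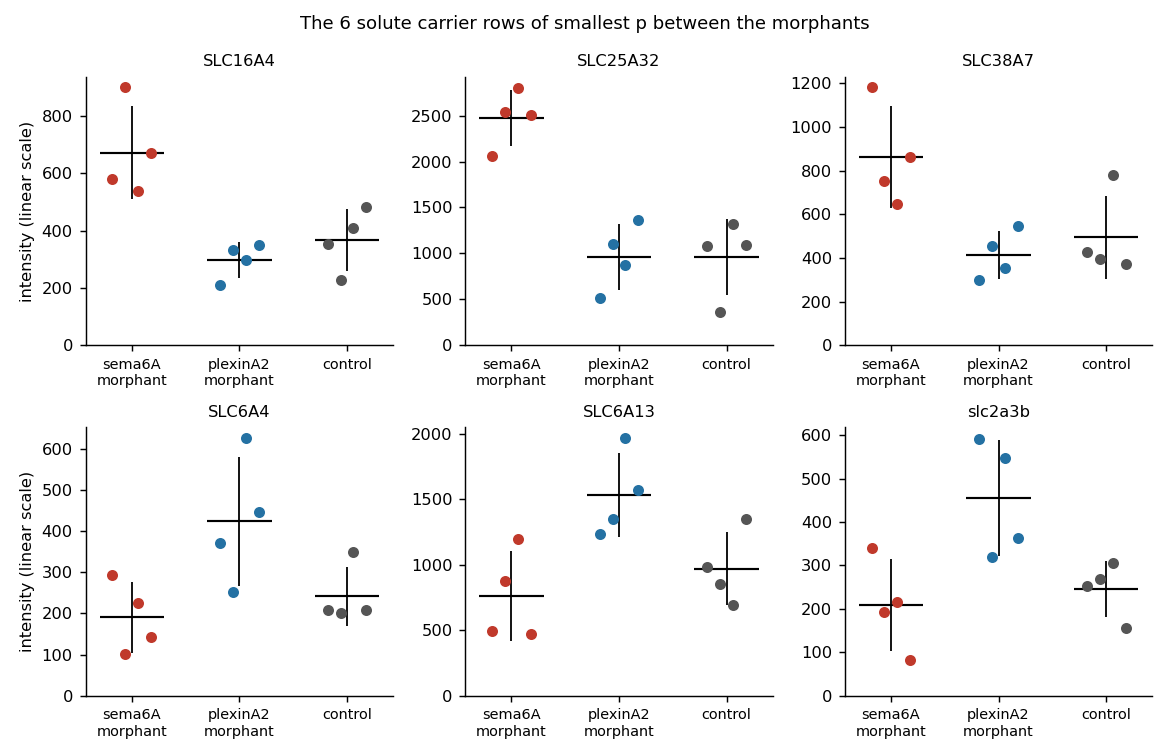
Panels show the 6 solute carrier rows of smallest p between the morphants, with intensity on a linear axis from 0, each point an array, horizontal bars the group means and vertical lines the SD over 4 arrays. SLC16A4, SLC25A32 and SLC38A7 are higher in sema6A than in plexinA2 morphants, and SLC6A4, SLC6A13 and slc2a3b are lower. Their adjusted p values lie between 0.0535 and 0.0731.

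The monocarboxylate, bile acid and organic ion carriers, 11 rows, had median changes of 0.13 in the sema6A and 0.16 in the plexinA2 morphants against control, which were near 0 without control replicate 4 for sema6A and 0.01 without control replicate 3 for plexinA2. SLC16A4, a monocarboxylate transporter family member of unsettled cargo, had the smallest p of all solute carriers between the morphants. It stood at 580.0, 899.6, 537 and 669 on the sema6A arrays, at 211, 334, 298 and 350.2 on the plexinA2 arrays and at 355, 227, 408 and 483 on the control arrays. The sema6A arrays lay above all arrays of both other groups. The difference was 1.17 ± 0.30 for sema6A over plexinA2 (adjusted p = 0.0535) and 0.89 ± 0.30 for sema6A against control (adjusted p = 0.109). Between the morphants it passed the test without sema6A replicate 1 or control replicate 2 or 4, with adjusted p values of 0.0493, 0.0199 and 0.0348.

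SLC10A4, a bile acid carrier family member found in synaptic vesicles, averaged 99.7 ± 26.7 in sema6A, 194 ± 45.5 in plexinA2 and 265 ± 195 in control embryos (SD, n = 4 each). Its changes against control were -1.14 ± 0.42 in sema6A (adjusted p = 0.13; -0.71 without control replicate 4) and -0.17 ± 0.42 in plexinA2 embryos (adjusted p = 0.869). SLC16A13, which carries lactate, averaged 476 ± 81.8 in sema6A, 314 ± 86.3 in plexinA2 and 300.3 ± 56.2 in control embryos, with a sema6A change of 0.67 ± 0.29 (adjusted p = 0.194).

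The metal and haem class held 7 rows, of zinc carriers and the iron exporter SLC40A1, and no haem carrier. It had no called member and none with an unadjusted p under 0.05 against control in either morphant. Of the 7, 1 was higher in the plexinA2 morphants than in control, with a median change of -0.29 that was -0.44 without control replicate 1 and -0.14 without control replicate 2, and 5 were higher in the sema6A morphants, with a median of 0.12 that turned to -0.07 without control replicate 4. SLC39A9, a zinc carrier of the secretory pathway, averaged 8202 ± 409 in sema6A, 5280.1 ± 796 in plexinA2 and 6605 ± 1722 in control embryos (SD, n = 4 each). The zinc importer row slc39a1 averaged 213 ± 95.8 in sema6A, 111 ± 31.4 in plexinA2 and 206 ± 123 in control embryos. SLC30A1, which exports zinc from the cell, averaged 406 ± 89.6 in sema6A, 246 ± 56.7 in plexinA2 and 309.7 ± 220.3 in control embryos. The differences for sema6A over plexinA2 were 0.65 ± 0.27 for SLC39A9 (adjusted p = 0.14), 0.86 ± 0.41 for slc39a1 (adjusted p = 0.189) and 0.73 ± 0.41 for SLC30A1 (adjusted p = 0.256).

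The row slc4a1ap, which is no carrier, averaged 1609.6 ± 581 in sema6A, 1232 ± 284 in plexinA2 and 1498 ± 796 in control embryos, and its change was 0.17 ± 0.35 in the sema6A morphants (adjusted p = 0.835).

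Other transporters, 38 rows of ATP-driven pumps, ABC transporters, aquaporins and an organic anion transporting polypeptide whose SLCO symbol the rule does not take, had 2 rises and 3 falls in the sema6A morphants against control, 13.2% of the 38 beside 3.12% of all rows. The plexinA2 morphants had 1 fall, 2.63% beside 2.86% of all rows. Between the morphants limma called 0, where 13 of 38, or 34.2%, had an unadjusted p under 0.05, beside 26.8% of all rows. The ABC transporters ABCB6, a porphyrin carrier, rose by 1.49 ± 0.29 in the sema6A morphants (adjusted p = 0.00671), and ABCD3, a peroxisomal carrier of fatty acids, by 1.15 ± 0.30 (adjusted p = 0.0437). On both rows all sema6A arrays lay above all controls. The bile salt pump family row abcb11a fell in the sema6A morphants, with a change of -1.11 ± 0.26 (adjusted p = 0.0241). AQP1, a water channel that is also abundant in red cells, fell by 1.78 ± 0.45 there (adjusted p = 0.0387), beside the erythroid sums given above. Its control arrays stood at 814, 2609, 770 and 2958. How the calls of these other transporters fare without single arrays or under other settings is not given here.

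ATP1B4, named as a beta subunit of the sodium and potassium pump, fell in both morphants, which share their controls. It averaged 339 ± 116 in sema6A, 337 ± 64.7 in plexinA2 and 903 ± 254 in control embryos (SD, n = 4 each). The changes were -1.44 ± 0.32 in sema6A (adjusted p = 0.0183) and -1.40 ± 0.32 in plexinA2 embryos (adjusted p = 0.0196). Against control, the rows of smallest p in the other groups stayed uncalled. Among proton pump subunits atp6v1e1a changed by -0.91 ± 0.27 in sema6A (adjusted p = 0.0685) and ATP6V1B2 by 0.72 ± 0.28 in plexinA2 embryos (adjusted p = 0.203). The copper pump ATP7B changed by 0.86 ± 0.32 in sema6A (adjusted p = 0.138) and the calcium pump atp2b1b by 0.71 ± 0.28 in plexinA2 embryos (adjusted p = 0.208). The glycerol channel AQP3 changed by -0.82 ± 0.36 in plexinA2 embryos (adjusted p = 0.255). The ABC row of smallest p in plexinA2 embryos was ABCB6, at 0.68 ± 0.29 (adjusted p = 0.235), and SLCO3A1, the only organic anion row, changed by 0.44 ± 0.33 in sema6A (adjusted p = 0.485) and 0.26 ± 0.33 in plexinA2 embryos (adjusted p = 0.726).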

How the data were processed

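The authors deposited 1 table of intensity values on a linear scale, between 26.3 and 42222, for 5134 Ensembl gene rows on 12 arrays. RMA, which corrects background, normalizes and summarizes probes, is named without a version in the submitters' processing notes. Its background step compresses differences of dim rows, and its normalization hides a shift of all genes together. RNA was extracted with Trizol, per the labels' protocols. Why the table held these rows, and the genome build, are not given in the sources used here. Symbols came from a gene name table that matched 4349 rows.

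Each array took its group from its own label. The deposited values were put on the log2 scale without an offset, and limma 3.58.1 (R 4.3.3; lmFit, eBayes) fitted 1 model of 12 arrays with group as its term, 9 residual and 9.54 prior degrees of freedom. Tests were two-sided with Benjamini-Hochberg adjustment over 5134 rows. The number of arrays limits the precision. Tested on simulated data for sema6A morphants against control over 5134 rows, the fit recovered 86.7% of rises of 2 and 23.3% of rises of 1 on the log2 scale. The simulated noise was normal, independent between rows and of equal spread in the 3 groups. In the data the median SD of all rows was 0.42 for sema6A, 0.30 for plexinA2 and 0.54 for control arrays. The shares recovered may therefore not hold for these data.

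The solute carrier rows, substrate classes and lists were chosen with earlier results of these data known, and the classes were completed after the row names were seen. Values of every array are given for called rows and for the 6 rows of smallest p in each comparison. Group means are given for the 3 of smallest p in each class and for a second row of a named symbol. Other transporters are named where called or of smallest p in their group. No sequences or coordinates are printed, and values of 1 symbol are not reported here beyond the counts. Whether equal replicate numbers pair arrays was checked on 12 pairs: correlations of their deviations from group means lay between -0.24 and 0.36, with 3 above 0.1, so the numbers were not taken as pairs. Alternatives were other array sets, the replicate number as a block, a filter of the dimmest 25% of rows, quantile normalization, median centring, log2 of the value plus 50, array weights, a trended robust prior, and each array left out. Leaving out control replicate 2 with sema6A replicate 1 was added after seeing the data.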

Additional observations from a re-analysis of the deposited data

Results flagged for a closer look

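Of 51 groups of 4 arrays examined among the solute carrier rows given array by array, 5 held an array that stood apart. On the log2 scale, its gap to its nearest neighbour was large against the whole range of the group (Dixon's test). Chance gives about 1 in 20, or 2.55 groups, for groups not chosen by their values, whereas these rows were chosen by p. Each flagged array is named here with the others of its group.

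SLC4A1 stood at 4723 on control replicate 4, against 623, 692 and 523 on the other controls. SLC25A32 stood at 364 on control replicate 2, against 1080.4, 1321 and 1090.4, and SLC35A3 at 361 on the same array, against 1128, 1027 and 1137. SLC6A4 stood at 349.9 on control replicate 3, against 208, 201 and 208. The SLC4A2 row ENSDARG00000052330 stood at 1438 on sema6A replicate 1, against 2418, 2276 and 2265. Control replicate 2 and sema6A replicate 1 are the arrays of lowest rank correlation with the others.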

How the results depend on the processing

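The 3 solute carriers called in the sema6A morphants against control became 0 when only those groups were fitted (47 of all rows, against 160). They became 38 under array weights (1407 of all rows) and 0 to 5 without 1 array (66 to 226 of all rows). The 2 called in the plexinA2 morphants became 1 under the replicate block and under median centring (130 of all rows in each, against 147). They became 37 under array weights (1629 of all rows) and 6 with control replicate 2 and sema6A replicate 1 both left out (275 of all rows). Without 1 array they became 1 to 4 (79 to 326 of all rows). Between the morphants the 0 calls became 21 when only those groups were fitted (743 of all rows, against 88). They became 2 under the replicate block (144 of all rows), quantile normalization (158), median centring (146) and log2 of the value plus 50 (136). They became 48 under array weights (2273 of all rows) and 16 with both arrays left out (880 of all rows). Without 1 array they became 0 to 13 (6 to 495 of all rows). The most came without control replicate 2, where 9.64% of all rows were called. There the differences between the morphants kept their size, and only the shared estimate of spread changed. The median difference between the morphants was 0.22 and lay between 0.045 and 0.25 without 1 array. The replicate block left SLC25A32 and SLC4A2 of the 3 sema6A calls, without slc17a9a (adjusted p = 0.0637), and SLC35F1 of the plexinA2 calls, without slc7a1a (adjusted p = 0.0607). SLC35F1 in the plexinA2 morphants kept its call under every setting. Each named row was then counted only in the comparisons that named it, or in that of its smallest p where its class named it. Over these and the alternatives 517 results stayed on their side of the threshold, 69 passed it anew, 39 lost it and none changed direction while called. Comparisons outside this count also crossed the threshold or changed sign. SLC4A1 in the plexinA2 morphants against control was -0.36 with all arrays and 0.38 without control replicate 4. Median centring moved the median of all rows in the plexinA2 comparison to -0.065, against 0.04. Beyond this role of the shared spread, the causes were not tested, and the number of arrays limits what could be called.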

Other observations

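These rows were chosen after their values were seen. Several solute carriers not called with all arrays in the fit were far lower or higher on sema6A replicate 1 than on the other sema6A arrays. SLC2A1, the widespread glucose transporter, stood at 1518, 11159, 12668 and 7525 on the sema6A arrays, against 13799 to 18769.5 on the plexinA2 arrays and 7530.3 to 20852 on the control arrays. SLC12A3, a sodium and chloride cotransporter, stood at 191, 2171, 2904 and 3702 on the sema6A arrays, and SLC45A2, which is needed for melanin synthesis, at 67.0, 504, 439.7 and 339. SLC16A3, a lactate exporter, stood at 6342 on sema6A replicate 1, against 1436, 1931 and 1407 on the other sema6A arrays. Its range was 3225 to 6750 on the plexinA2 arrays and 1768 to 5615 on the control arrays. The row was called between the morphants when sema6A replicate 1 was left out. SLC3A2, the heavy chain of amino acid exchangers, stood at 8073 on that array, against 3345, 3405 and 1984 on the other sema6A arrays. Its range was 2245 to 3718 on the plexinA2 arrays and 926 to 6232 on the control arrays. Sema6A replicate 1 also had the lowest erythroid sum, 6855, and the lowest muscle sum, 15501, of the 12 arrays.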
